A study of Homo sapiens with 2 samples.

Results

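The NRF2 antioxidant genes described here are NFE2L2, which encodes NRF2, its inhibitor KEAP1, and 7 classical targets of NRF2, namely NQO1, HMOX1, GCLC, GCLM, TXNRD1, SRXN1 and AKR1C1. They were chosen by name, by matching the gene symbol in the deposited values, and 9 of 9 genes were found among 16424 listed genes. SRXN1 is listed under a pair of identifiers, so that the 9 genes fill 10 entries. PLC/PRF/5 is an established human hepatoma cell line. M2BPGi is a glycosylated form of Mac-2-binding protein that is measured in serum as a marker of liver fibrosis. The study asked which signals this protein changes in hepatocellular carcinoma cells and used cap analysis of gene expression (CAGE), in which short tags are read from the 5′ ends of capped RNAs. There were 2 libraries, 1 of non-treated cells (0 µg/ml) and 1 of cells that had 3 µg/ml M2BPGi in their medium for 6 h before collection. Since each condition has 1 library, none of the differences below has a replicate check.

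NRF2 is a transcription factor that cells keep at a low level by marking it for degradation. KEAP1 holds it on a ubiquitin ligase built on CUL3, and oxidants or electrophiles that modify KEAP1 let NRF2 accumulate, enter the nucleus, pair with a small MAF protein and bind antioxidant response elements. In the liver this pathway drives detoxification and glutathione synthesis, and mutations that activate it are found in hepatocellular carcinoma. Because NRF2 is controlled mainly through the stability of its protein, the RNA level of NFE2L2 is not a measure of its activity.

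Promoter sequences are shown first because NRF2 acts on its targets through short motifs, many of them near the start of the gene. RefSeq sequences (GRCh38.p14) from 250 bases before to 50 bases after a start were matched by symbol for 8 of the 9 genes, with 11 starts. HMOX1 was not matched. A pair of motifs was searched for on both strands, TGACNNNGC, the core of the antioxidant response element, and the looser TGANNNNGC, which includes every match of the former. Of 35116 promoters of 300 bases in the RefSeq table, 13.3% held the former and 41.8% the latter. Of the 11 starts, 4 held TGACNNNGC and 7 held TGANNNNGC. Counted by gene, TGACNNNGC was present in 3 of the 8 genes (KEAP1, GCLM and TXNRD1) and TGANNNNGC in 6 of them, against 16.1% and 47.1% of the 27305 genes in the table. The coordinates are those of GRCh38, which is not the hg19 build that the labels name for the mapping. Below are the 150 bases before the start of GCLM (chr1:93909431-93909580, minus strand) and before the first start of TXNRD1 (chr12:104215629-104215778, plus strand), written 5′ to 3′ on the strand of the gene, with matches of TGACNNNGC or its complement in capitals. In GENCODE v29, 26 bases of the GCLM window lie in the first exon of the gene and 0 in its coding sequence, and 0 bases of the TXNRD1 window lie in the gene.
GCLM: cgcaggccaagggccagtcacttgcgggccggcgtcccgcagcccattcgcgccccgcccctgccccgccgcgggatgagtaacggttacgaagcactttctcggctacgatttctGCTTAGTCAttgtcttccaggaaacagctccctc
TXNRD1 start 1: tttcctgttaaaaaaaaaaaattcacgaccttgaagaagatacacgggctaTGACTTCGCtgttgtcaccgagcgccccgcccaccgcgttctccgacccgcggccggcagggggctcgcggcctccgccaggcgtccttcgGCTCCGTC

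The GCLM match reads TGACTAAGC on the opposite strand and begins 34 bases before the start. In TXNRD1 the first match begins 99 bases before the start, and the second, which reads TGACGGAGC on the opposite strand, runs 1 base past the start and is cut there. The other matches are shown with 10 bases on each side, again on the strand of the gene, to compare their letters with those of GCLM. The second KEAP1 start holds a pair of matches (chr19:10502784-10502812 and chr19:10502807-10502835, minus strand), 31 and 54 bases before the start. The second TXNRD1 start holds one (chr12:104286920-104286948, plus strand), 102 bases before the start. The NQO1 promoter held no match of TGACNNNGC in this window and 1 of TGANNNNGC (chr16:69726661-69726689, minus strand), 119 bases before the start. In GENCODE v29 each of these 4 stretches lies in exons of its gene and outside the coding sequence.
KEAP1 start 2, near site: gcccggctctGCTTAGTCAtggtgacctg
KEAP1 start 2, far site: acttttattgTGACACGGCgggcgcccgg
TXNRD1 start 2: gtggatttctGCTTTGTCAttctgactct
NQO1: tcctggagctGCAGCCTCAgcatcctccg

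The 9 capital letters of the near KEAP1 site and of GCLM are the same, GCTTAGTCA. NFE2L2 and AKR1C1 held TGANNNNGC as well, and GCLC and SRXN1 held neither motif in these windows. A match describes letters in a window, and binding was not measured. Among 1738 genes with TGACNNNGC in a promoter the median log2 ratio between the libraries was -0.04, and among 7121 genes without it -0.05.

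The deposited values are CAGE tags per gene scaled to the size of the library (CPM). The tag numbers behind them, read back within the rounding to 2 decimals, give totals of 24040209 tags for non-treated and 24862941 for M2BPGi-treated cells. One tag is worth 0.0416 CPM in the former and 0.0402 CPM in the latter library. The difference between libraries is given as the log2 ratio of M2BPGi-treated over non-treated cells after adding 1 CPM to both values, over the 13724 genes with a mean of at least 1 CPM. Folds are on this scale, which understates differences of low genes. The 95% interval after a log2 ratio is a Clopper-Pearson interval of the tag ratio without the added 1 CPM. It covers counting error only. Over the 13724 genes the median log2 ratio was -0.05, the quartiles were -0.26 and 0.14, and the central 95% ran from -0.67 to 0.52.

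All 9 genes had a higher CPM in M2BPGi-treated than in non-treated cells, whereas 42.9% of the 13724 genes did. For 7 of the 9 genes the counting interval lay above 0, against 22.8% of all genes, and for 0 of 9 it lay below 0, against 31.5%. The differences were small. At least 25% higher on this scale were 3 of the 9 genes, NQO1, KEAP1 and AKR1C1, against 9.04% of all genes. At least 20% lower, the same fold in the other direction, were 0 of the 9, against 18.4%. At a fold of 1.5, 0 of 9 genes were higher, against 1.6% of all genes, and 0 of 9 were lower, against 4.04%. With the libraries rescaled to a median log2 ratio of 0, NQO1 passed this fold, with a log2 ratio of 0.60, against 290 of the 13724 genes in all. After this rescaling the counting interval lay above 0 for 8 of the 9 genes (all but GCLC), against 27.7% of all genes. The median log2 ratio of the 9 genes was 0.23, and that of the 7 targets alone was also 0.23. Summed over the 10 entries, the level was 963 CPM without and 1168 CPM with M2BPGi. The second SRXN1 entry (ENSG00000234516) did not reach a mean of 1 CPM and is not among the 9 entries counted.

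**Figure D1:**
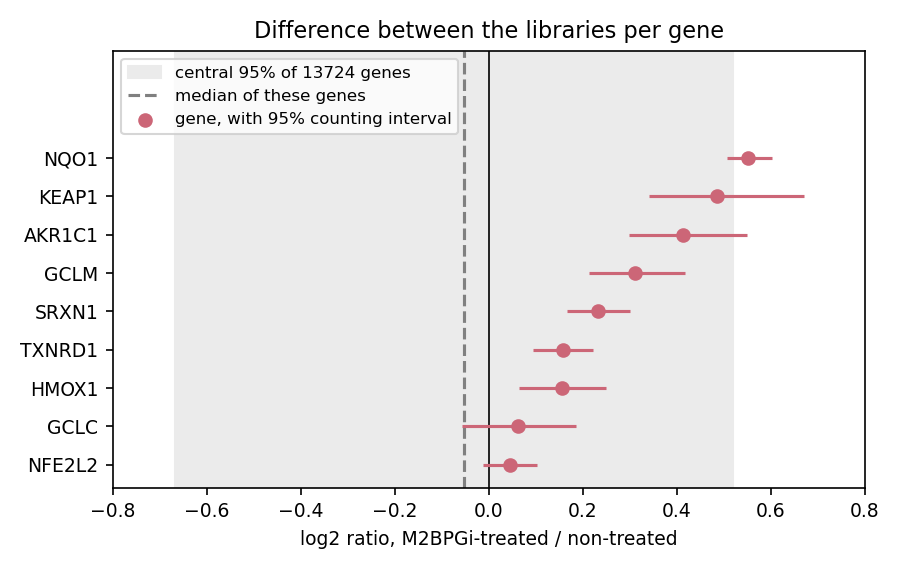
Log2 ratio of M2BPGi-treated over non-treated cells for each of the 9 genes, with bars for the 95% counting interval of the tag ratio, 1 library per condition. The grey band is the central 95% of 13724 genes and the dashed line their median of -0.05; NQO1, at 0.55, lies to the right of the band, and the bars of GCLC and NFE2L2 cross 0.

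NFE2L2 (ENSG00000116044, chr2:177227595-177392697, minus strand, GENCODE v29 on GRCh38) encodes NRF2 itself. Its level was 199 CPM (4791 tags) without and 206 CPM (5110 tags) with M2BPGi, a log2 ratio of 0.04 (interval -0.01 to 0.10). Under the deposited scaling the interval holds 0, so that a difference of this size was not detectable at this depth. This depends on the scaling, since with the libraries rescaled to a median log2 ratio of 0 the interval was 0.04 to 0.15. KEAP1 (ENSG00000079999, chr19:10486120-10503741, minus strand) encodes the adaptor that presents NRF2 for degradation. Its level was 21.1 CPM (508 tags) without and 30.0 CPM (746 tags) with M2BPGi. This is a 1.40-fold difference, with a log2 ratio of 0.49 (interval 0.34 to 0.67), above that of 97.0% of the 13724 genes. The inhibitor was thus the regulator with the higher ratio, and its RNA was the lowest in level of the 9 genes in both libraries. In CPM, the ratio of NFE2L2 to KEAP1 was 9.43 in non-treated and 6.85 in M2BPGi-treated cells.

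NQO1 (ENSG00000181019, chr16:69706996-69726951, minus strand) encodes a quinone reductase and is widely used as a readout of NRF2. Its level was 238 CPM (5728 tags) without and 349.9 CPM (8700 tags) with M2BPGi. The 1.47-fold difference, a log2 ratio of 0.55 (interval 0.51 to 0.60), was the highest of the 9 and exceeded that of 98.0% of all genes kept. AKR1C1 (ENSG00000187134, chr10:4963253-4983283, plus strand) encodes an aldo-keto reductase that acts on steroids and carbonyls. Its level was 36.7 CPM (881 tags) without and 49.2 CPM (1222 tags) with M2BPGi, a log2 ratio of 0.41 (interval 0.30 to 0.55). Its first 500 nt match those of AKR1C2 with 96.2% identity over 500 nt, and those of AKR1C3 with 96.1% over 128 nt, so how tags were split among the 3 genes is uncertain. AKR1C2 had 101 CPM without and 126 CPM with M2BPGi. AKR1C3 had 138 CPM and 169 CPM. All 3 AKR1C genes were therefore higher in the M2BPGi-treated library.

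The 2 subunits of the enzyme that starts glutathione synthesis had different ratios. GCLM (ENSG00000023909, chr1:93885205-93909456, minus strand) encodes the modifier subunit of glutamate-cysteine ligase, the rate-limiting enzyme of glutathione synthesis. Its level was 57.2 CPM (1376 tags) without and 71.2 CPM (1771 tags) with M2BPGi, a 1.24-fold difference with a log2 ratio of 0.31 (interval 0.21 to 0.42). GCLC (ENSG00000001084, chr6:53497341-53616970, minus strand) encodes the catalytic subunit of the same enzyme. It had 45.1 CPM (1085 tags) without and 47.2 CPM (1173 tags) with M2BPGi, a log2 ratio of 0.06 (interval -0.06 to 0.18), which was not detectable as a difference at this depth, nor after the rescaling. The intervals of the 2 subunits do not overlap. In CPM, the ratio of GCLC to GCLM was 0.788 in non-treated and 0.662 in M2BPGi-treated cells.

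SRXN1 and TXNRD1, of the thioredoxin system, were both higher by less than 25%. SRXN1 (ENSG00000271303, chr20:646615-653370, minus strand) encodes sulfiredoxin, which repairs overoxidised peroxiredoxins. Its level was 136 CPM (3274 tags) without and 160.2 CPM (3982 tags) with M2BPGi, a log2 ratio of 0.23 (interval 0.17 to 0.30). The second SRXN1 entry had 0.83 CPM (20 tags) and 0.68 CPM (17 tags), and the log2 ratio of the summed entries was also 0.23. TXNRD1 (ENSG00000198431, chr12:104215779-104350305, plus strand) encodes the cytosolic thioredoxin reductase. Its level was 154 CPM (3691 tags) without and 171 CPM (4259 tags) with M2BPGi, a log2 ratio of 0.16 (interval 0.09 to 0.22). RPL18AP3, a processed pseudogene inside TXNRD1 on the same strand, had 1049 CPM without and 1699.7 CPM with M2BPGi, so the TXNRD1 value also rests on how tags were divided between the 2 loci.

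HMOX1 (ENSG00000100292, chr22:35380361-35394214, plus strand) encodes haem oxygenase 1, which breaks down haem and is also induced by many stresses that do not act through NRF2. Its level was 74.5 CPM (1791 tags) without and 83.1 CPM (2065 tags) with M2BPGi, a log2 ratio of 0.15 (interval 0.06 to 0.25). The ratio of NQO1 to HMOX1 in CPM was 3.20 in non-treated and 4.21 in M2BPGi-treated cells, so these 2 classical targets did not differ by the same factor.

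**Figure D2:**
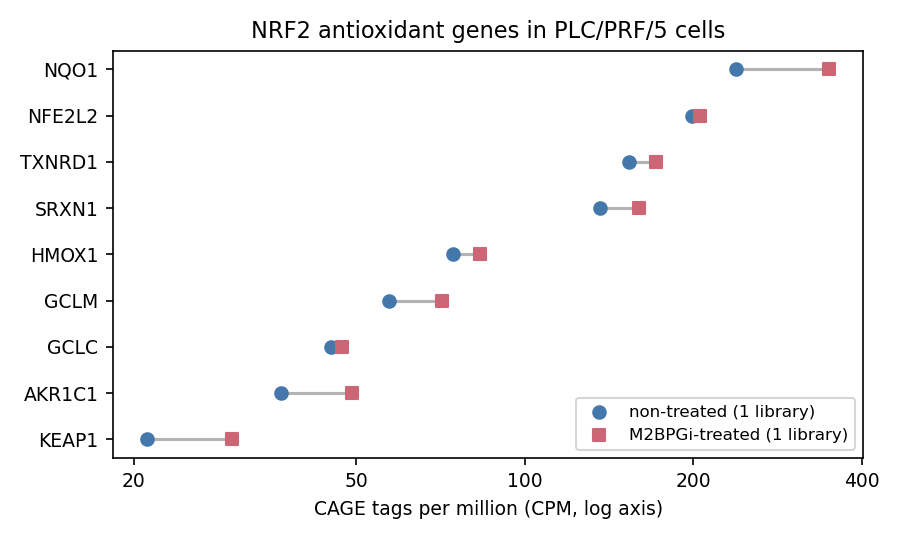
Level of the 9 genes in CPM (log axis) in non-treated (circles) and M2BPGi-treated cells (squares), 1 library each, ordered by the level in non-treated cells. Every square lies to the right of its circle; NQO1 has the highest level in both libraries and KEAP1 the lowest.

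Since CAGE reads 1 end per transcript and needs no scaling for length, levels of different genes can be set side by side in CPM. This holds as far as tags were assigned to the right gene, which is uncertain for AKR1C1 and TXNRD1 and is not covered by the counting intervals. In non-treated cells the order of levels was NQO1, NFE2L2, TXNRD1, SRXN1, HMOX1, GCLM, GCLC, AKR1C1 and KEAP1. The counting intervals of neighbours in this order did not overlap. In M2BPGi-treated cells AKR1C1 (49.2 CPM) came before GCLC (47.2 CPM), and the intervals of these 2 levels overlapped, whereas those of the other neighbours did not. A spread over samples cannot be given with 1 library per condition. By distance over log2 of CPM plus 1 in the 2 libraries, the genes nearest to NQO1 were NDUFS7, with 249 CPM without and 359 CPM with M2BPGi, and RPS3 and SNORD15A, which both had 254 and 344 CPM. SNORD15A is a small nucleolar RNA of an RPS3 intron, and the values of these 2 entries are identical. Nearest to NFE2L2 were MRPS25 (199 and 204 CPM), POLR2F (198 and 208 CPM) and RRP36 (201 and 208 CPM).

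The ratio between these libraries varied with transcript length and with level among genes with a mean of at least 10 CPM. Among 9221 genes with a mean of at least 10 CPM and a known length, the median log2 ratio was 0.12 in the decile with the shortest transcripts and -0.13 in that with the longest. Each of the 9 genes lay above the median of its own length decile, by 0.05 for HMOX1 and by 0.59 for NQO1, the extremes. Across deciles of level, taken over genes with a mean of at least 10 CPM whether or not their length was known, the median was -0.09 in the lowest and 0.13 in the highest. NFE2L2, at 0.04, lay below the median of its level decile, 0.13, and the other 8 genes lay above theirs. The part of length and level in the ratios was not tested.

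**Figure D3:**
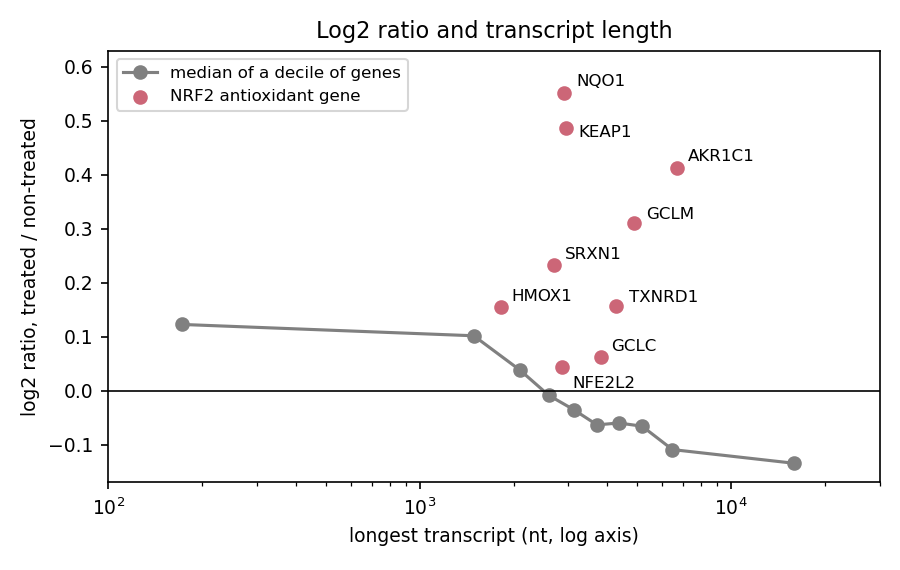
Log2 ratio of M2BPGi-treated over non-treated cells against the length of the longest transcript (log axis) for the 9 genes, with the median of each decile of 9221 genes placed at the geometric middle of its lengths. The medians fall from 0.12 to -0.13 with length, and the 9 genes lie above the line of medians.

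Other genes of the antioxidant system were described from lists that hold the 9 genes as well. Apart from the list of stress targets shared with ATF4, the lists had 71 genes with a mean of at least 1 CPM. Of these, 57 were higher in M2BPGi-treated cells, 13 lower and 1 equal, with a median log2 ratio of 0.17, against 42.9% higher and a median of -0.05 among all genes kept. Without the 9 genes they were 48 higher, 13 lower and 1 equal of 62, with a median of 0.17. The counting interval lay above 0 for 36 of these 62, against 22.8% of all genes, and below 0 for 8, against 31.5%. At least 25% higher were 9 of the 62, against 9.04% of all genes, and at least 20% lower were 2, against 18.4%. At least 1.5-fold higher were 3 (CHAC1, FTL and FTH1), against 1.6%. Of 77 list entries searched, 19 match another gene within their first 500 nt, over 100 nt or more at an identity of 95% or more. Such a match can be a near-identical copy of the gene or a short stretch shared with an unrelated one, and tags within it can be assigned to either. Without the entries that have a match, 55 of the 71 genes above were left, of which 42 were higher, 12 lower and 1 equal, with a median of 0.15. These comparisons with all genes, and those of the single lists below, take no account of transcript length or level. The median log2 ratio was 0.12 in the decile with the shortest transcripts and 0.13 in the decile with the highest level. The part of length and level in the lists was not tested.

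Regulators of NRF2 lay on both sides of 0. They were 9 higher, 3 lower and 1 equal of 13, against 42.9% of all genes higher, and their median log2 ratio was 0.03, against -0.05. The counting interval lay above 0 for 5 of the 13, against 22.8% of all genes, and below 0 for 2, against 31.5%. RBX1, the RING subunit of the CUL3 ligase, had 153 CPM without and 193 CPM with M2BPGi, a log2 ratio of 0.34 (interval 0.28 to 0.40). PGAM5, a mitochondrial phosphatase that binds KEAP1, had 81.2 and 101 CPM (log2 ratio 0.31). The small MAF partner MAFG was lower, with 36.2 CPM without and 26.2 CPM with M2BPGi, a log2 ratio of -0.45 (interval -0.61 to -0.32). NFE2L1, the relative of NRF2 that responds to proteasome activity, was also lower, with 409 and 334 CPM (log2 ratio -0.29). The repressor BACH1, which competes for the same elements, had 36.5 CPM in both libraries and was named after its value was seen.

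In glutathione synthesis and reduction, 11 of 14 genes were higher, against 42.9% of all genes, and 3 lower, with a median of 0.18. The interval lay above 0 for 8 of the 14, against 22.8%, and below 0 for 1, against 31.5%. CHAC1, which degrades glutathione and is also a target of ATF4, had 44.2 CPM without and 70.4 CPM with M2BPGi, a log2 ratio of 0.66 (interval 0.56 to 0.78). The peroxidase GPX1 had 80.3 and 112 CPM (log2 ratio 0.48) and has a near-identical copy. The lowest ratios were those of SLC3A2, with 164 and 149 CPM (log2 ratio -0.14), and GPX8, with 13.8 and 12.6 CPM (log2 ratio -0.12, interval -0.35 to 0.10). SLC3A2 is the partner of the cystine carrier SLC7A11, a classical NRF2 target, which had 53.9 CPM without and 51.5 CPM with M2BPGi (log2 ratio -0.06, interval -0.18 to 0.05). SLC7A11 was named after its value was seen, and its interval holds 0 while that of GCLM lies above it.

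Among thioredoxin and peroxiredoxin genes, 10 of 12 were higher, against 42.9% of all genes, and 2 lower, with a median of 0.17. For 8 of the 12 the interval lay above 0, against 22.8%, and for 1 below 0, against 31.5%. TXN, which encodes thioredoxin, had 896 CPM without and 1114 CPM with M2BPGi (log2 ratio 0.31). PRDX1, a cytosolic peroxiredoxin, had 717 and 874 CPM (log2 ratio 0.29). Both have near-identical copies. PRDX4, the peroxiredoxin of the endoplasmic reticulum, was lower, with 661 CPM without and 514 CPM with M2BPGi, a log2 ratio of -0.36 (interval -0.40 to -0.33). PRDX2 had 92.9 and 96.3 CPM (log2 ratio 0.05, interval -0.03 to 0.14). TXNIP, also named afterwards, is listed at 0 in both libraries and was not searched for matches with other genes, so its RNA level is not read from these values.

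For quinone, carbonyl and conjugation enzymes, 13 of 16 genes were higher, against 42.9% of all genes, and 3 lower, with a median of 0.27. Intervals above 0 were found for 10 of the 16, against 22.8%, and intervals below 0 for 2, against 31.5%. After NQO1 and AKR1C1 came AKR1C2 (log2 ratio 0.32) and the glutathione transferase GSTM3, with 89.8 CPM without and 112 CPM with M2BPGi (log2 ratio 0.32). The lowest were EPHX1, a microsomal epoxide hydrolase, with 106 and 90.3 CPM (log2 ratio -0.24), and the membrane-bound transferase MGST1, with 472 and 412 CPM (log2 ratio -0.20). Enzymes of detoxification thus lay on both sides of 0.

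In haem breakdown and iron storage, 7 of 7 genes were higher, against 42.9% of all genes, with a median of 0.24. The interval was above 0 for 6 of the 7, against 22.8%, and below 0 for 0, against 31.5%. Both ferritin chains, which store iron, were at least 1.5-fold higher, against 1.6% of all genes. FTL had 1737 CPM without and 2625 CPM with M2BPGi, a log2 ratio of 0.60 (interval 0.58 to 0.61). FTH1 had 829 and 1246 CPM, a log2 ratio of 0.59 (interval 0.56 to 0.61). Each of these 2 genes has near-identical copies. The copies that are listed sum to 0.45 and 0.28 CPM for FTH1, and to 35.7 and 34.8 CPM for FTL. Besides HMOX1, the lowest ratios were those of HMOX2, the constitutive haem oxygenase, with 34.1 and 35.2 CPM (log2 ratio 0.05, interval -0.09 to 0.19), and of the haem transporter SLC48A1, with 139 and 165 CPM (log2 ratio 0.24).

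Genes of NADPH supply split, with 4 of 6 higher, against 42.9% of all genes, and 2 lower and a median of 0.28. The interval lay above 0 for 4 of the 6, against 22.8% of all genes, and below 0 for 2 of the 6, against 31.5%. PGD, which makes NADPH from phosphogluconate, was the highest, with 141 CPM without and 179.8 CPM with M2BPGi (log2 ratio 0.34), and has a near-identical copy. TKT, of the non-oxidative branch, had 298 and 254 CPM (log2 ratio -0.23), and IDH1 had 331 and 317 CPM (log2 ratio -0.06, interval -0.11 to -0.02). The call for IDH1 depends on the scaling, since the median of -0.05 that the rescaling removes exceeds in size its upper limit of -0.02. For superoxide and peroxide removal, the counting interval lay above 0 for 2 of 3 genes, against 22.8% of all genes, and held 0 for SOD2, and the median was 0.17. SOD1, the cytosolic superoxide dismutase, had 588 and 714 CPM (log2 ratio 0.28), catalase (CAT) 60.0 and 67.5 CPM (log2 ratio 0.17), and the mitochondrial SOD2 151 CPM in both libraries (log2 ratio 0.00, interval -0.06 to 0.07). SOD1 shares 107 nt with a histone gene, HIST3H2BB, at 95.3% identity, and IDH1 shares 123 nt with another gene at 95.1%.

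ATF4 is a factor of the integrated stress response that also acts on glutathione and amino acid genes. The list of stress targets shared with it, which holds ATF4 itself, had the highest median of these lists, 0.36. In this list 5 of 5 genes were higher, against 42.9% of all genes, and 4 of 5 were at least 25% higher, against 9.04%. CHAC1 (log2 ratio 0.66), SLC7A11 (-0.06) and SLC3A2 (-0.14) were placed in the glutathione list and are not counted here. TRIB3 had 22.6 CPM without and 44.0 CPM with M2BPGi, a log2 ratio of 0.93 (interval 0.81 to 1.11). ASNS, which makes asparagine, had 76.3 and 106 CPM (log2 ratio 0.47). ATF4 itself had 243 and 309.6 CPM (log2 ratio 0.35), and SESN2 had 15.1 and 16.3 CPM (log2 ratio 0.11, interval -0.09 to 0.32). ATF4 has near-identical copies, and ASNS matches another gene over 244 nt at 95.1% identity.

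**Figure D4:**
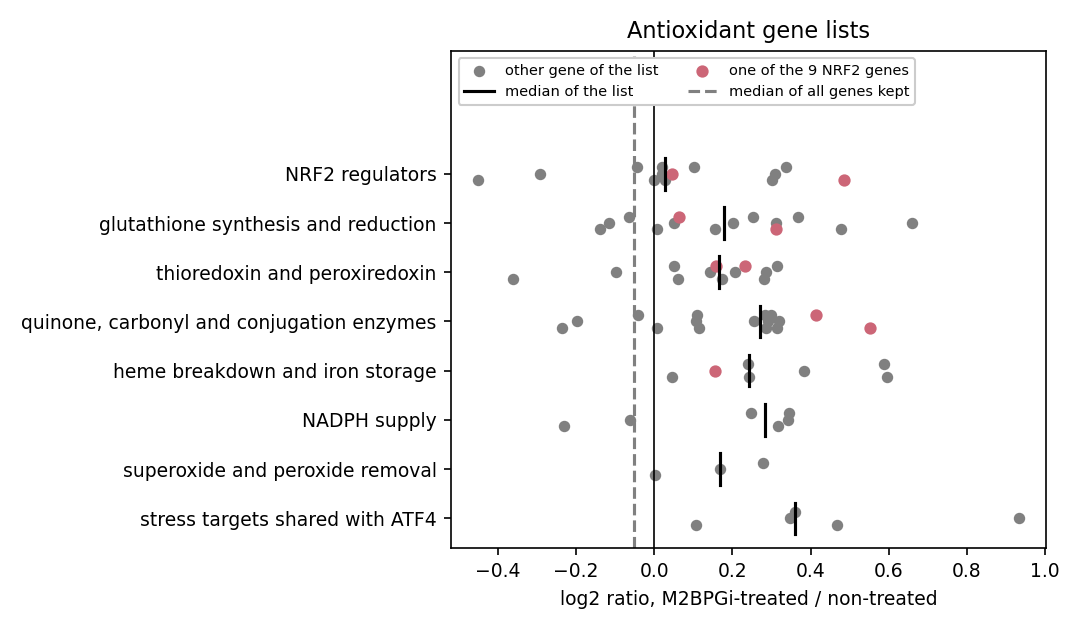
Log2 ratio of M2BPGi-treated over non-treated cells for each gene of 8 antioxidant lists with a mean of at least 1 CPM; red points are the 9 NRF2 genes, black bars the median of each list, and the dashed line the median of all genes kept, -0.05. The medians run from 0.03 for NRF2 regulators to 0.36 for the list of ATF4 and targets shared with it.

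The cell line was checked against markers of its type and of other liver cells. All 9 hepatocyte and hepatoma markers are listed. Their summed level was 2450.2 CPM without and 1765 CPM with M2BPGi, with FGB the most abundant (950.0 and 623 CPM). AFP, the fetal protein of hepatoma cells, had 695 and 566 CPM, and ALB had 8.82 and 7.04 CPM. With M2BPGi, 2 of the 9 markers (HNF4A and APOA1) were higher, against 42.9% of all genes, and 7 were lower. Their median log2 ratio was -0.30, against -0.05 for all genes kept. In bulk RNA, fewer cells of a type and less RNA per cell cannot be told apart, and the part of this difference in the values above was not tested. Of macrophage markers, CD68 had 21.2 CPM without and 20.5 CPM with M2BPGi, PTPRC was listed at 0 in both, and CD163, CD14 and MARCO are not among the genes listed. By counting alone, 0 tags allow up to 0.125 CPM without and 0.121 CPM with M2BPGi to be assigned to a gene. Since the rule that assigned tags to genes is not given in the sources used here, this is no limit on the level of its RNA. Of stellate cell and fibroblast markers, COL1A1 had 0.67 and 0.76 CPM, and COL1A2, ACTA2, DCN and PDGFRB are not among the genes listed. The endothelial markers PECAM1, VWF, CDH5 and KDR are not listed either.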

How the data were processed

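The authors deposited CPM for each gene with 2 decimals. By the methods of the paper, ribosomal tags and tags with unread bases were removed, BWA was the aligner, and CAGEr grouped the tag starts. The submitters' processing notes name hg19, BWA and HISAT2, whereas the methods name a mouse genome, and the gene identifiers are human. The rule that assigned tags to genes is not given in the sources used here.

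The 9 genes and the other lists were chosen with earlier results of these data known. Tag numbers were recovered from the steps in CPM within the rounding and serve only for totals and counting intervals. No count test was run. The median ratios of motif, length and level classes, the pair ratios and the genes without matches were added after the values were seen. So were the counts of genes with an interval above or below 0, and the counts of genes higher than 0 in the other lists. The count of the 9 genes higher than 0 was not named in the plan. Named in each list are the 2 highest and 2 lowest genes with a mean of at least 10 CPM, besides the 9; 1 gene selected in this way is not reported here, and BACH1, SLC7A11 and TXNIP were added after their values were seen. Each list holds genes typical of its name: regulators, glutathione, thioredoxin, conjugation, haem and iron, NADPH, superoxide, ATF4 targets, and markers of hepatocytes, macrophages, stellate and endothelial cells. GPX7, CBR3 and SOD3 are not among the genes listed. Matches between genes were searched for in GENCODE v29 with BLAST+ 2.17.0. Python 3.11.15, pandas 2.3.3, scipy 1.17.1 and matplotlib 3.10.9 were used, and the calculations were tested on simulated data.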

Additional observations from a re-analysis of the deposited data

How the results depend on the processing

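The direction of the 9 NRF2 genes and their median did not turn under any alternative run. Planned for these values were pseudocounts of 0.1 and 5 CPM, no filter, a mean of at least 10 CPM, and libraries rescaled to a median log2 ratio of 0. Chosen after seeing the data were libraries rescaled to a trimmed mean of 0, the SRXN1 entries summed, and AKR1C1 left out. The median lay between 0.19 and 0.28, and 9 of 9 genes were higher, or 8 of 8 without AKR1C1. Without the filter the second SRXN1 entry, at -0.12, is counted as well, so that 9 of 10 entries were higher. The median and the trimmed mean removed by the rescalings were both -0.05. The number of NRF2 genes at least 1.5-fold higher, 0 as reported, was 1 under each rescaling, where NQO1 reached 0.60, and was 3 at 25% higher. The number of NRF2 genes with a counting interval above 0, 7 as reported, was 8 under each rescaling, where the interval of NFE2L2 was 0.04 to 0.15. Among all genes the share with an interval above 0 changed from 22.8% to 27.7% with the median and to 27.8% with the trimmed mean. Of 55 log2 ratios of single NRF2 genes, 53 stayed within the counting interval, and the other 2 were those of NQO1 under the rescalings. Among all genes, 219 were at least 1.5-fold higher and 555 lower. They were 336 and 856 with a pseudocount of 0.1 CPM, 91 and 164 with 5 CPM, 135 and 223 with a mean of at least 10 CPM, 290 and 438 after rescaling to the median, 290 and 437 after rescaling to the trimmed mean, 1240 and 2532 at 25% higher or 20% lower, and 33 and 59 at a fold of 2. Scaling factors and count tests on tag numbers were planned but not run, since a stricter criterion for whole tags than the rounding was not met by the non-treated library. No paired analysis was possible because there is 1 library of each condition. The counting intervals cover depth but not variation between cultures, which was not measured.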
